A study of Homo sapiens with 12 samples.

Results

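The 10 genes described here are *FOXO1*, *FOXO3* and *FOXO4*, which encode transcription factors of the forkhead box O family, and 7 genes known to be switched on by them: *TP53INP1*, *DEPP1*, *YPEL3*, *HBP1*, *FBXO32*, *TRIB1* and *CITED2*. They were taken by symbol from 63152 gene identifiers, each symbol matched a single identifier, and all 10 were among the 13180 genes that passed a filter on low counts. Transcripts were counted by 3' mRNA sequencing (QuantSeq) in OPM2 cells, a human line established from multiple myeloma, the cancer of plasma cells. Every group was collected after 2 h and held 3 libraries, which the labels call biological triplicates. The groups were DMSO vehicle, JQ1 at 250 nM, BKM120 at 1 µM and 18DS at 250 nM. JQ1 displaces BET proteins, the readers of acetylated histones, from chromatin. BKM120 (buparlisib) inhibits the lipid kinase PI3K. 18DS is a chimera that, per the submitters' title, blocks PI3K and BET proteins alike. All groups came from 1 cell line at 1 time point, each compound was given at 1 dose, and JQ1 was never combined with BKM120.

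FOXO proteins are the nuclear end of the PI3K pathway. When growth factors activate PI3K, the kinase AKT phosphorylates FOXO proteins, which are then bound by 14-3-3 proteins and held in the cytoplasm, and when PI3K signalling falls they return to the nucleus and activate genes for cell cycle arrest, apoptosis, stress resistance, autophagy and insulin signalling. This control acts on the proteins, so that the level of a FOXO transcript and the activity of its protein are separate quantities, and only transcripts were measured here.

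FOXO proteins bind DNA at the forkhead motif GTAAACA, and a related site in promoters of insulin-responsive genes holds AAAACAA. Both were looked for on both strands of RefSeq promoter windows (build GRCh38.p14) that run from 250 bases before to 50 bases after an annotated start. *TP53INP1*, *FBXO32* and *TRIB1* had no entry in that table, and 7 of the 10 genes had at least 1 window. GTAAACA (on the other strand TGTTTAC) was present for 4 of these 7 genes, as against 1145 of 27305 genes with a window (4.19%) and 1202 of 35116 windows (3.42%). The 7 genes were chosen as FOXO genes or known FOXO targets, with results in view. In addition, *FOXO3*, *CITED2* and *HBP1* had 4, 3 and 2 windows, so nothing is read from the difference in shares. The 4 sites are shown because they are the places in these promoters where the motif was found, each with 10 bases on either side, on the strand of the gene, 5′ to 3′, with the motif in capitals.

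*HBP1*, chr7:107168820-107168846, plus strand: atcttctccaGTAAACAcaacacaaaa
*DEPP1*, chr10:44978973-44978999, minus strand: gccctgcagcGTAAACAttccccagcc
*YPEL3*, chr16:30096197-30096223, minus strand: tgggctcggtGTAAACAagtccaggcg
*FOXO4*, chrX:71095864-71095890, plus strand: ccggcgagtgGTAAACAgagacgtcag

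The motif began 173 bases before the start of *HBP1* and 180 bases before that of *DEPP1*. In *YPEL3* and *FOXO4* it lay just after the start. For *DEPP1* and *HBP1*, whose sites lie upstream of the start, the 250 bases before it are shown with the motif in capitals.

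*DEPP1*, chr10:44978810-44979059, minus strand: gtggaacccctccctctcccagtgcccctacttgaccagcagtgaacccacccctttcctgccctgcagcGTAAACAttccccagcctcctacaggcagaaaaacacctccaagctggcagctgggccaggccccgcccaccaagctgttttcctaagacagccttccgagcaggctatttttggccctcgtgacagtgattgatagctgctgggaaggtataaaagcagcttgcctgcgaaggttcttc
*HBP1*, chr7:107168753-107169002, plus strand: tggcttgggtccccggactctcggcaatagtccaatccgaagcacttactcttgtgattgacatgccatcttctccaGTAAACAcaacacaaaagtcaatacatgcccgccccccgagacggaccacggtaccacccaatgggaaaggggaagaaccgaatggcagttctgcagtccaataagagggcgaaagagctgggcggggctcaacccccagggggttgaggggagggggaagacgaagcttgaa

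The second motif, AAAACAA, or TTGTTTT on the other strand, was found for *HBP1* alone of the 7 genes, in another of its windows, and for 2486 of 27305 genes (9.1%). A match says only that these letters occur in the window, and binding was not measured. Of 64 other FOXO-activated genes with a window, 8 held GTAAACA (12.5%): *BTG1*, *MXI1*, *BCL2L11*, *PIK3IP1*, *TXNIP*, *SELENOP*, *TCF7* and *TSC22D3*. AAAACAA was held by 9 of the 64 (14.1%).

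Library totals ranged from 5501895 to 7692013 counts. Mitochondrial genes took 6.56% to 6.97% of the counts of the DMSO libraries and 6.61% to 7.04% of those of JQ1. Their share was 6.99% to 7.65% for BKM120 and 6.95% to 7.60% for 18DS, so it was higher in every BKM120 library than in any DMSO library. Its part in the results was not tested. All 11 plasma cell and myeloma markers passed the filter. Their sum was 6639 to 6852 CPM (counts scaled to a common library size) with DMSO, 6436 to 6541 with BKM120, 6031 to 6362 with JQ1 and 5522 to 6022 with 18DS, so every treated library was below every DMSO library, and the part of this in the results was not tested. The 4 B cell markers summed to at most 0.359 CPM, the 8 T and NK cell markers to at most 1.44 CPM, the 7 myeloid markers, of which *LYZ* passed the filter, to at most 3.15 CPM, and the 7 epithelial and fibroblast markers to at most 2.61 CPM. Of these *MS4A1*, *CD3D*, *NKG7* and *FCGR3A* were at 0 in every library. Levels below are CPM of TMM-scaled library sizes, changes are log2 fold changes of one edgeR fit over the 12 libraries, and called means a p under 0.05 after Benjamini-Hochberg adjustment over all 13180 genes. The 10 genes were chosen with the results of these comparisons in view, so their levels, changes, intervals and calls are descriptions. In bulk RNA, fewer cells with a transcript and less of it per cell cannot be told apart.

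With BKM120, 5 of the 7 target genes stood out. *TP53INP1*, *DEPP1*, *YPEL3*, *HBP1* and *FBXO32* were each 2.87-fold to 4.38-fold higher than with DMSO. For *FBXO32* a high level with BKM120 was a condition of being tested, since it passed the filter on low counts largely through those libraries. The other targets, *TRIB1* (log2 fold change -0.14) and *CITED2* (0.24), and the FOXO genes differed far less. With JQ1 no member was called higher, and *TRIB1* and *FBXO32* were lower, the latter on 1 to 3 counts per JQ1 library. With 18DS, *TP53INP1*, *DEPP1* and *YPEL3* were higher and *TRIB1* was lower. The plot of levels shows these patterns library by library.

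**Figure D1:**
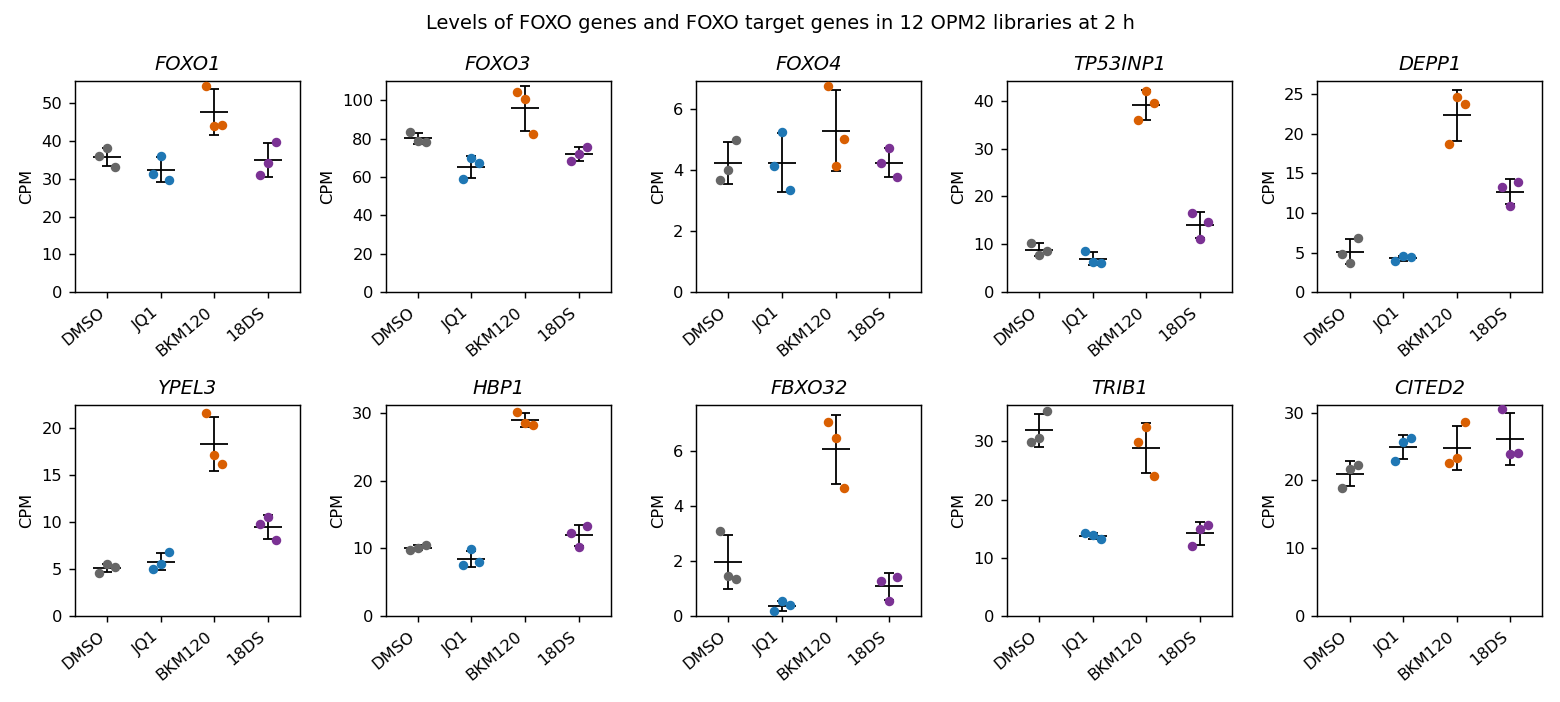
Level of each gene in CPM (vertical axis, from 0) in the 12 libraries, by group. Points are libraries in the order of their replicate numbers, horizontal lines are means and bars are 1 SD of 3 libraries; the 3 BKM120 libraries lie above all others for *TP53INP1*, *DEPP1*, *YPEL3*, *HBP1* and *FBXO32*, and the JQ1 and 18DS libraries lie below the other groups for *TRIB1*.

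Of the FOXO genes themselves, *FOXO1* (ENSG00000150907), the family member best known for its roles in B cell development and in insulin responses, was measured at 36.1, 38.0 and 33.2 CPM with DMSO, 31.3, 36.0 and 29.7 CPM with JQ1, 54.6, 43.9 and 44.2 CPM with BKM120, and 30.9, 34.1 and 39.8 CPM with 18DS. The BKM120 libraries were above all 9 others, and the other groups overlapped. The log2 fold change with BKM120 was 0.41 (SE 0.11, 95% interval 0.18 to 0.64), a call that was lost without DMSO replicate 1, without DMSO replicate 3 or without BKM120 replicate 1. With JQ1 the change was -0.15 (-0.39 to 0.09) and with 18DS -0.04 (-0.28 to 0.20).

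*FOXO3* (ENSG00000118689), a widely expressed member tied to stress responses and apoptosis, stood at 83.4, 78.8 and 78.3 CPM with DMSO, 59.0, 69.7 and 67.1 CPM with JQ1, 104, 101 and 82.1 CPM with BKM120, and 68.1, 71.8 and 75.8 CPM with 18DS. All JQ1 and 18DS libraries were below all DMSO libraries, and BKM120 replicate 3 fell within the DMSO range. The mean levels ran from JQ1 (65.2 ± 5.56 CPM, SD, n = 3) through 18DS (71.9 ± 3.86) and DMSO (80.1 ± 2.80) to BKM120 (95.7 ± 11.9), and of these neighbours 18DS and DMSO did not overlap. The changes were -0.30 with JQ1 (SE 0.09, 95% interval -0.49 to -0.10), 0.26 with BKM120 (0.07 to 0.44) and -0.16 with 18DS (-0.35 to 0.03), none of them called. The JQ1 change was called in 6 of 20 alternative settings.

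*FOXO4* (ENSG00000184481) was measured at 24 to 42 counts per library. Its levels were 3.68, 4.03 and 5.0 CPM with DMSO, 4.13, 5.27 and 3.37 CPM with JQ1, 6.76, 4.13 and 5.03 CPM with BKM120, and 4.23, 4.74 and 3.79 CPM with 18DS. All groups overlapped. The intervals of its changes were wide, from -0.57 to 0.55 with JQ1, from -0.22 to 0.87 with BKM120 and from -0.55 to 0.57 with 18DS, so that a change of the size seen for *FOXO1* was not detectable at this depth.

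Among the targets, *TP53INP1* (ENSG00000164938), whose product takes part in p53-dependent stress responses and in autophagy, was measured at 10.3, 7.73 and 8.66 CPM with DMSO and at 35.9, 42.1 and 39.5 CPM with BKM120. With JQ1 it stood at 8.60, 6.37 and 6.09 CPM, and with 18DS at 16.5, 11.1 and 14.7 CPM. The JQ1 and DMSO libraries overlapped, all 18DS libraries were above both, and all BKM120 libraries were above those of 18DS. The log2 fold change with BKM120 was 2.13 (SE 0.16, 95% interval 1.80 to 2.46), or 4.38-fold, the 13th highest of 13180 genes. With 18DS it was 0.67 (SE 0.18, 0.31 to 1.02), or 1.59-fold, and with JQ1 -0.36 (-0.76 to 0.04).

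*DEPP1* (ENSG00000165507) is a gene induced by FOXO factors in fasting and stress that has been linked to autophagy. It was measured at 4.86, 3.70 and 6.83 CPM with DMSO, 3.96, 4.55 and 4.40 CPM with JQ1, 18.7, 24.7 and 23.7 CPM with BKM120, and 13.2, 10.9 and 13.9 CPM with 18DS. The groups had the same order as for *TP53INP1*, with the JQ1 libraries inside the DMSO range and the 18DS libraries between DMSO and BKM120. The change with BKM120 was 2.12 (SE 0.20, 95% interval 1.71 to 2.54), or 4.36-fold and the 14th highest, and with 18DS 1.31 (SE 0.21, 0.88 to 1.74), or 2.48-fold. With JQ1 it was -0.25 (-0.75 to 0.26).

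*YPEL3* (ENSG00000090238), a growth suppressor gene linked to senescence, was measured at 4.57, 5.48 and 5.17 CPM with DMSO, 4.99, 5.46 and 6.73 CPM with JQ1, 21.6, 17.1 and 16.2 CPM with BKM120, and 9.73, 10.5 and 8.05 CPM with 18DS. DMSO and JQ1 overlapped, and the 18DS libraries lay between these and the BKM120 libraries. The change was 1.85 with BKM120 (SE 0.20, 95% interval 1.44 to 2.26), or 3.61-fold, 0.90 with 18DS (SE 0.21, 0.46 to 1.33), and 0.20 with JQ1 (-0.27 to 0.66).

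*HBP1* (ENSG00000105856) encodes an HMG-box repressor of cell cycle genes. It was measured at 9.72, 9.99 and 10.5 CPM with DMSO, 7.57, 9.82 and 8.03 CPM with JQ1, 30.1, 28.5 and 28.2 CPM with BKM120, and 12.3, 10.2 and 13.3 CPM with 18DS. Here the BKM120 libraries stood apart from all 9 others, and 18DS overlapped DMSO. The change was 1.52 with BKM120 (SE 0.15, 95% interval 1.22 to 1.83), or 2.87-fold, 0.25 with 18DS (-0.09 to 0.58) and -0.25 with JQ1 (-0.61 to 0.10).

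RefSeq places another gene across 3 of these 4 targets, taken as overlap of whole gene spans. The sources used here do not say whether counting used the strand, so whether reads of the overlapping genes were shared cannot be told. *COG5*, which overlaps *HBP1*, had mean levels of 15.5 CPM with DMSO and 33.7 CPM with BKM120 (log2 fold change 1.12) and 19.0 CPM with 18DS. *RASSF4*, which overlaps *DEPP1*, changed by 0.32 with BKM120 and by 0.32 with 18DS, and *NDUFAF6*, which overlaps *TP53INP1*, by 0.23 with BKM120.

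*FBXO32* (ENSG00000156804) encodes atrogin-1, the substrate receptor of a ubiquitin ligase that drives protein breakdown in wasting muscle. It was the lowest in counts, with 21, 9 and 8 counts in the DMSO libraries, 1, 3 and 3 with JQ1, 44, 44 and 26 with BKM120, and 9, 3 and 9 with 18DS. These are 3.09, 1.45 and 1.33 CPM with DMSO, 0.172, 0.546 and 0.388 CPM with JQ1, 7.08, 6.50 and 4.67 CPM with BKM120, and 1.27, 0.527 and 1.42 CPM with 18DS. All BKM120 libraries were above, and all JQ1 libraries below, those of DMSO, and the 18DS libraries overlapped both DMSO and JQ1. The gene passed the filter on low counts through the 3 BKM120 libraries and DMSO replicate 1, so a high level with BKM120 was a condition of its being tested. In a fit of only the JQ1 and DMSO libraries it did not pass and was not tested, so its JQ1 call rests on the fit over all groups.

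The change of *FBXO32* with BKM120 was 1.61 (SE 0.36, 95% interval 0.87 to 2.35), and 2.12 without DMSO replicate 1. With JQ1 it was -2.37 (SE 0.66, -3.72 to -1.03), and from the summed counts the ratio of JQ1 to DMSO was 0.184 (0.0693 to 0.417, counting error only). The JQ1 change was -1.86 and no longer called without DMSO replicate 1, the library with the most counts in its group. With 18DS the change was -0.85 (-1.81 to 0.10).

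*TRIB1* (ENSG00000173334), a pseudokinase gene whose product brings the ubiquitin ligase COP1 to its substrates, was lower with JQ1 and with 18DS. It was measured at 29.9, 30.6 and 35.2 CPM with DMSO, 14.3, 13.8 and 13.2 CPM with JQ1, 29.9, 32.5 and 24.1 CPM with BKM120, and 12, 14.9 and 15.6 CPM with 18DS. The JQ1 and 18DS libraries overlapped each other and all lay below the DMSO and BKM120 libraries, which also overlapped. The change was -1.21 with JQ1 (SE 0.14, 95% interval -1.50 to -0.93), or 2.32-fold lower, -1.17 with 18DS (SE 0.14, -1.46 to -0.89), or 2.25-fold lower, and -0.14 with BKM120 (-0.40 to 0.12).

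*CITED2* (ENSG00000164442) encodes a co-regulator that binds the acetyltransferases CBP and p300. Its levels were 18.9, 21.7 and 22.3 CPM with DMSO, 22.9, 25.6 and 26.3 CPM with JQ1, 22.5, 23.3 and 28.6 CPM with BKM120, and 30.6, 23.9 and 24.0 CPM with 18DS. All 9 treated libraries were above all 3 DMSO libraries, and the treated groups overlapped. The changes were 0.26 with JQ1 (95% interval -0.02 to 0.53), 0.24 with BKM120 (-0.03 to 0.51) and 0.33 with 18DS (0.06 to 0.60), and none was called.

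Counted over the 10 genes, BKM120 had 6 called, all higher, as against 8.21% of all tested genes called in that comparison. These include *FBXO32*, for which a high level with BKM120 was a condition of being tested. JQ1 had 2 called, both lower, where 6.08% of all genes were called (1 without DMSO replicate 1), and 18DS had 3 called higher and 1 lower, where 21% were called. The median change over the 10 genes was 0.97 with BKM120, -0.25 with JQ1 and 0.13 with 18DS, beside medians of all genes within 0.004 of 0. Counting genes whose libraries did not overlap those of DMSO, 7 were higher and 0 lower with BKM120 (13.7% and 14.5% of all genes), 1 higher and 3 lower with JQ1 (12.2% and 13.2%), and 4 higher and 2 lower with 18DS (16.9% and 18.4%). These 3 comparisons share the DMSO libraries, and since the genes were picked with them in view nothing is read from the counts. The plot of fold changes sets the 4 comparisons side by side.

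**Figure D2:**
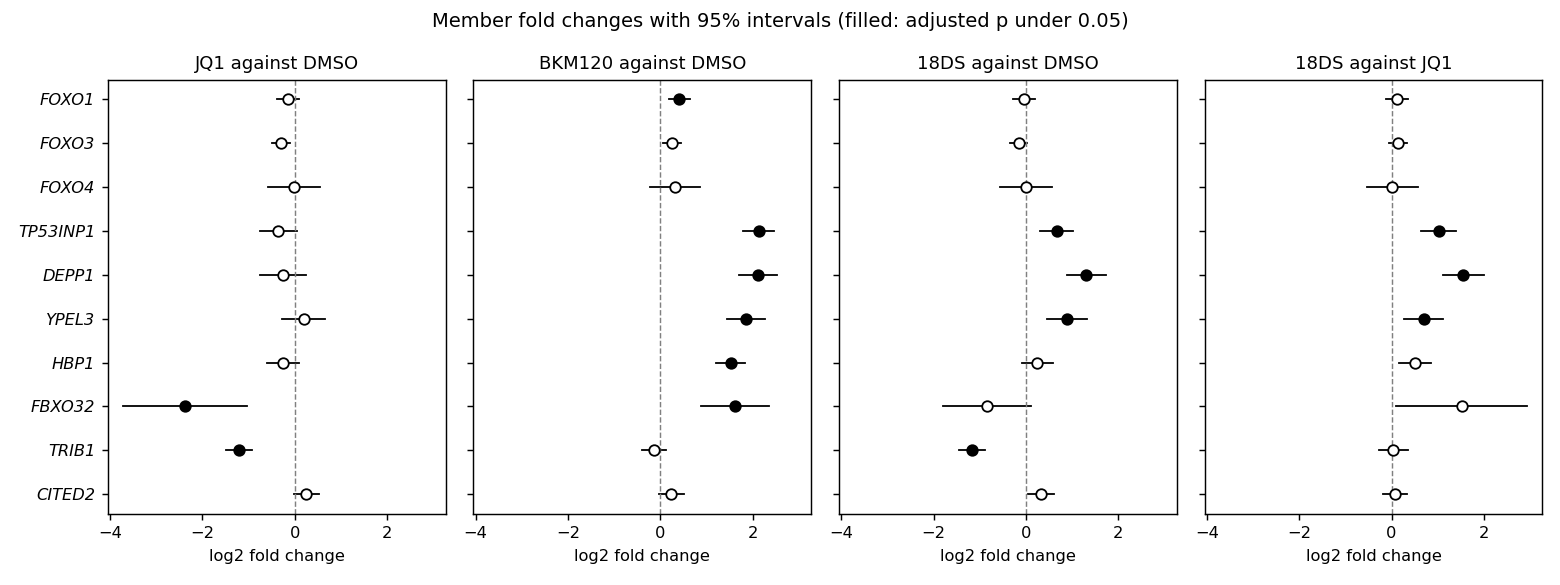
Log2 fold change of each gene (horizontal axis) with its 95% interval in 4 comparisons; filled points are genes called at an adjusted p under 0.05 over all tested genes. BKM120 has 6 filled points, all to the right of 0, and the interval of *FBXO32* is the widest in each panel.

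JQ1 and 18DS were given at the same dose, 250 nM, for the same time, and their levels are set against each other here. Whether the 2 compounds inhibited BET proteins equally at that dose was not measured. *DEPP1* was 2.95-fold higher with 18DS than with JQ1 (log2 difference 1.56, SE 0.22, 95% interval 1.11 to 2.01), and *TP53INP1* was 2.04-fold higher (1.03, SE 0.19, 0.65 to 1.40). *YPEL3* was higher by 0.70 (0.28 to 1.12), a call that was kept in 7 of 20 alternative settings. For these genes every 18DS library was above every JQ1 library. The same held for *HBP1*, whose difference of 0.50 (0.16 to 0.85) was not called.

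Of the rest, *FBXO32* differed by 1.52 with a wide interval (0.11 to 2.94) and a ratio of summed counts of 2.99 (1.22 to 8.32, counting error only), and was not called. *TRIB1* differed by 0.04 (-0.27 to 0.35), *CITED2* by 0.07 (-0.19 to 0.34), *FOXO1* by 0.11 (-0.13 to 0.36), *FOXO3* by 0.14 (-0.05 to 0.33) and *FOXO4* by 0.02 (-0.54 to 0.58). The intervals of *TRIB1*, *CITED2*, *FOXO1* and *FOXO3* hold no difference beyond 0.36 in either direction on the log2 scale. In all, 3 of the 10 genes were called higher and 0 lower, where 4.16% of all genes were called in this comparison. With DESeq2's Wald test 1 was called, and 4 of the 10 had no adjusted p there. The libraries did not overlap for 4 genes, all higher with 18DS, as for 11.8% of all genes higher and 12.2% lower.

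18DS and BKM120 were given at different doses, 250 nM and 1 µM, and their values are placed side by side without a comparison of the compounds. The changes against DMSO were 0.67 with 18DS and 2.13 with BKM120 for *TP53INP1*, 1.31 and 2.12 for *DEPP1*, 0.90 and 1.85 for *YPEL3*, 0.25 and 1.52 for *HBP1*, -0.85 and 1.61 for *FBXO32* and -1.17 and -0.14 for *TRIB1*. On the log2 scale the 18DS change less the JQ1 and BKM120 changes added together was -1.11 for *TP53INP1* (95% interval -1.61 to -0.61), -1.15 for *YPEL3* (-1.74 to -0.57), -1.02 for *HBP1* (-1.48 to -0.56), -0.57 for *DEPP1* (-1.17 to 0.04), -0.09 for *FBXO32* and 0.18 for *TRIB1*. These values rest on the doses used, and none of the 10 genes was called in this contrast, in which 0.121% of all genes were.

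To see which other transcripts followed the same course, each of the 10 genes was set beside the 9850 other tested genes whose mean level was 5 CPM or more. The measure was the root-mean-square (rms) difference over the 12 libraries of log2 CPM centred on the DMSO mean, so a smaller value is a closer match. *BBC3*, the gene of the cell death protein PUMA, was the closest gene to *TP53INP1* (rms 0.379), *DEPP1* (0.332) and *YPEL3* (0.314). For *HBP1* it was the sialyltransferase gene *ST3GAL6* (0.204), with the overlapping *COG5* second (0.263). The closest gene to *TRIB1* was *THRA*, which encodes a thyroid hormone receptor (0.186), and *FBXO32* had its closest match in *ARID5B* (0.575). For the genes that moved little, the closest were *CCDC28A* for *FOXO1* (0.115), *LCORL* for *FOXO3* (0.102), *NDUFAF6* for *FOXO4* (0.118) and *UCHL1* for *CITED2* (0.0785). Among the 10 genes the pair *FOXO1* and *FOXO3* differed by 0.164, *TP53INP1* and *DEPP1* by 0.405, and *DEPP1* and *YPEL3* by 0.442.

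A second list held 75 other genes reported to be activated by FOXO factors, grouped by function. It was drawn up with earlier results of these data known, so its counts and p-values are no independent support for a direction. Of these 74 matched an identifier and 54 were tested. With BKM120, 19 of 54 rose and 1 fell (edgeR, adjusted over all genes, here and below), with a median change of 0.26, beside 4.07% of all genes called higher and 4.14% lower. With JQ1 12 rose and 2 fell (median 0.05, with 2.63% and 3.45% of all genes), and with 18DS 18 rose and 4 fell (median 0.14, with 9.96% and 11%). Against JQ1, 8 were higher and 1 lower with 18DS (median 0.14, with 2.37% and 1.78%). Calls with JQ1 numbered 9 in all without DMSO replicate 1 or without JQ1 replicate 3, and calls of 18DS against JQ1 numbered 3 without any 1 of the JQ1 libraries or without 18DS replicate 3. Calls over all genes moved as well when 1 library was left out, from 801 to between 504 and 1021 for JQ1, from 1082 to between 482 and 1564 for BKM120 and from 548 to between 105 and 1027 for 18DS against JQ1. *PIK3IP1*, *SESN3* and *BCL6* reached the level of the filter on low counts in no DMSO library and passed it through treated libraries, so for them a change was a condition of being tested. The groups by function are small, and each of their counts below is to be read against the shares of all genes given here. The plot of the list by function shows where the changes lay.

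**Figure D3:**
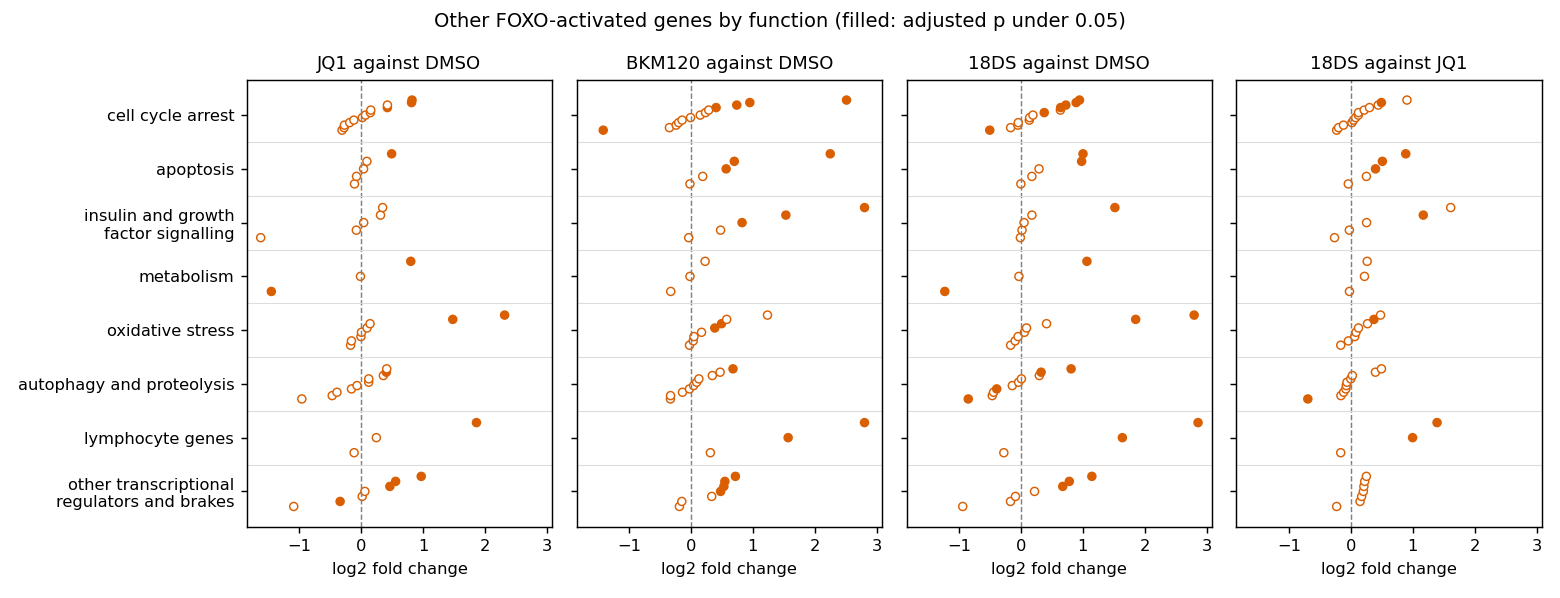
Log2 fold change (horizontal axis) of 54 other FOXO-activated genes in 8 groups by function (vertical axis), in 4 comparisons. Filled points are genes with an adjusted p under 0.05 over all tested genes; with BKM120 the filled points lie to the right of 0 except for 1 cell cycle gene, *CDKN1A*.

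Among 13 cell cycle arrest genes, 4 rose and 1 fell with BKM120, 3 rose with JQ1, and 5 rose and 1 fell with 18DS. *BTG1*, an antiproliferative gene, stood at 173, 183 and 186 CPM with DMSO and 356, 328 and 363 CPM with BKM120, a rise of 0.95 (SE 0.07, adjusted p = 4.12e-11). With 18DS it reached 230, 222 and 251 CPM (0.38, adjusted p = 0.000315). *CCNG2*, which encodes the arrest-linked cyclin G2, rose by 2.51 with BKM120 (SE 0.36, adjusted p = 2.72e-06), from 1.54 ± 0.333 to 8.80 ± 0.683 CPM (SD, n = 3). *CDKN2D*, which encodes the CDK inhibitor p19, rose with JQ1 (0.82, adjusted p = 2.62e-05) and 18DS (0.95, adjusted p = 8.66e-07) and changed by 0.15 with BKM120. The gene that fell with BKM120 was *CDKN1A*, which encodes the CDK inhibitor p21 (-1.42, SE 0.24, adjusted p = 6.11e-05), named after its values were seen. It rose with JQ1 (0.81, adjusted p = 0.00236) and 18DS (0.89, adjusted p = 0.000264). Its 18DS change less those with JQ1 and BKM120 added together was 1.5 (adjusted p = 0.0145), a value that rests on the doses used.

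Of 5 apoptosis genes, 3 rose with BKM120, 1 with JQ1 and 2 with 18DS, and 3 were higher with 18DS than with JQ1. *BBC3* was measured at 2.80, 4.19 and 4.33 CPM with DMSO and at 17.7, 19.8 and 16 CPM with BKM120 (2.25, SE 0.22, adjusted p = 1.94e-09), and at 7.19, 6.15 and 8.84 CPM with 18DS (0.98, adjusted p = 0.00232). Its 3 JQ1 libraries, at 3.78, 4.37 and 3.88 CPM, lay within or just above the DMSO range. *PMAIP1*, which encodes NOXA, rose with JQ1 (0.49, adjusted p = 0.0428), BKM120 (0.70, adjusted p = 0.00218) and 18DS (1.00, adjusted p = 3.05e-06). *BCL2L11*, which encodes BIM, rose by 0.57 with BKM120 (adjusted p = 0.000835), and was higher with 18DS than with JQ1 by 0.40 (adjusted p = 0.0364).

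Of 5 genes of insulin and growth factor signalling, 3 rose with BKM120, 1 with 18DS and 0 with JQ1. *IRS2*, which encodes an adaptor that links the insulin receptor to PI3K, stood at 8.84, 9.82 and 6.83 CPM with DMSO, 25.1, 19.5 and 29.8 CPM with BKM120, and 23.0, 23.4 and 27 CPM with 18DS. The BKM120 and 18DS libraries overlapped and were all above DMSO, by 1.53 (SE 0.18, adjusted p = 1.14e-07) and 1.52 (adjusted p = 2.99e-08). *RICTOR*, which encodes a subunit of the mTORC2 kinase complex that phosphorylates AKT, rose by 0.82 with BKM120 (adjusted p = 4.98e-05) and changed by 0.18 with 18DS. *PIK3IP1*, a PI3K inhibitor gene, had 4, 0 and 6 counts in the DMSO libraries and 23, 22 and 25 with BKM120 (log2 fold change 2.80, SE 0.61), and the BKM120 libraries were the only ones in which it reached the level of the filter.

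The lymphocyte genes of the list were mostly too low to test, and of the 3 tested 2 rose with BKM120, 1 with JQ1 and 2 with 18DS. *BCL6*, which passed the filter through treated libraries, was among those that rose in each of these comparisons. *KLF2*, a transcription factor gene that FOXO1 activates in lymphocytes, was measured at 37.7, 44.0 and 44.0 CPM with DMSO, 59.2, 39.8 and 49.6 CPM with JQ1, 313, 296 and 266 CPM with BKM120, and 132, 102 and 157 CPM with 18DS. It rose by 2.80 with BKM120 (adjusted p = 2.64e-07) and by 1.64 with 18DS (adjusted p = 1.16e-05), and was higher with 18DS than with JQ1 by 1.39 (adjusted p = 0.000731). Its 18DS change less the JQ1 and BKM120 changes added together was -1.41 (adjusted p = 0.0321), a value that rests on the doses used. *KLF2* and *CDKN1A* were the 2 genes of this list, of 54 tested, called in that contrast, in opposite directions. Of all genes 0.121% were called there. *BCL6*, which encodes a germinal centre repressor, had 5, 6 and 6 counts with DMSO, 23, 15 and 25 with JQ1, 8, 23 and 19 with BKM120, and 39, 44 and 43 with 18DS. Its log2 fold changes were 1.86 with JQ1, 1.57 with BKM120 and 2.86 with 18DS.

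Of 8 oxidative stress genes, 2 rose in each of the 3 comparisons with DMSO. *SESN2*, a sestrin gene of the antioxidant and mTORC1-restraining family, stood at 13.0, 14.8 and 13.3 CPM with DMSO, 38.7, 34.6 and 41.0 CPM with JQ1, 15.8, 13.7 and 16.9 CPM with BKM120, and 51.0, 47.9 and 49.6 CPM with 18DS. The JQ1 and 18DS libraries were above all others (1.48, adjusted p = 5.03e-11, and 1.85, adjusted p = 3.48e-14), and BKM120 overlapped DMSO. *SESN3* had 1, 3 and 4 counts with DMSO, 11, 10 and 21 with JQ1 and 14, 18 and 26 with 18DS (log2 fold changes 2.32, SE 0.66, and 2.80), and reached the level of the filter in JQ1 and 18DS libraries alone. *SESN1* rose with BKM120 by 0.49 (adjusted p = 0.0422).

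Of 10 genes of autophagy and proteolysis, 1 rose with BKM120, 1 with JQ1, and 2 rose and 2 fell with 18DS, where 9.96% of all genes rose and 11% fell. *ULK1*, which encodes the kinase that starts autophagosome formation, rose with BKM120 (0.68, adjusted p = 0.00114) and 18DS (0.81, adjusted p = 2.77e-05). *MAP1LC3B*, which encodes an autophagosome membrane protein, rose with JQ1 (0.41, adjusted p = 0.00492) and 18DS (0.33, adjusted p = 0.0118). *MUL1*, a mitochondrial ubiquitin ligase gene, fell by 0.85 with 18DS (adjusted p = 0.00129).

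Of 3 metabolic genes tested, 0 were called with BKM120 and 2 with JQ1 and with 18DS. *PNPLA2*, which encodes the lipase ATGL, rose with JQ1 (0.80, adjusted p = 2.88e-05) and 18DS (1.07, adjusted p = 4.75e-08), and *PPARGC1A*, which encodes the mitochondrial co-activator PGC-1α, fell with JQ1 (-1.45, adjusted p = 0.000796) and 18DS (-1.23, adjusted p = 0.00137). Among 7 other transcriptional regulators and brakes, 4 rose with BKM120, 3 rose and 1 fell with JQ1, and 3 rose with 18DS. *TSC22D3*, which encodes the glucocorticoid-induced protein GILZ, rose with JQ1 (0.46, adjusted p = 0.00137), BKM120 (0.55, adjusted p = 0.00022) and 18DS (0.68, adjusted p = 2.06e-06), as did *MYLIP*, a ubiquitin ligase gene (0.56, 0.72 and 0.78). *TOB1*, an antiproliferative gene, rose with JQ1 (0.97, adjusted p = 0.00279) and 18DS (1.15, adjusted p = 0.000119). The heat map shows these genes under the 10 described first.

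**Figure D4:**
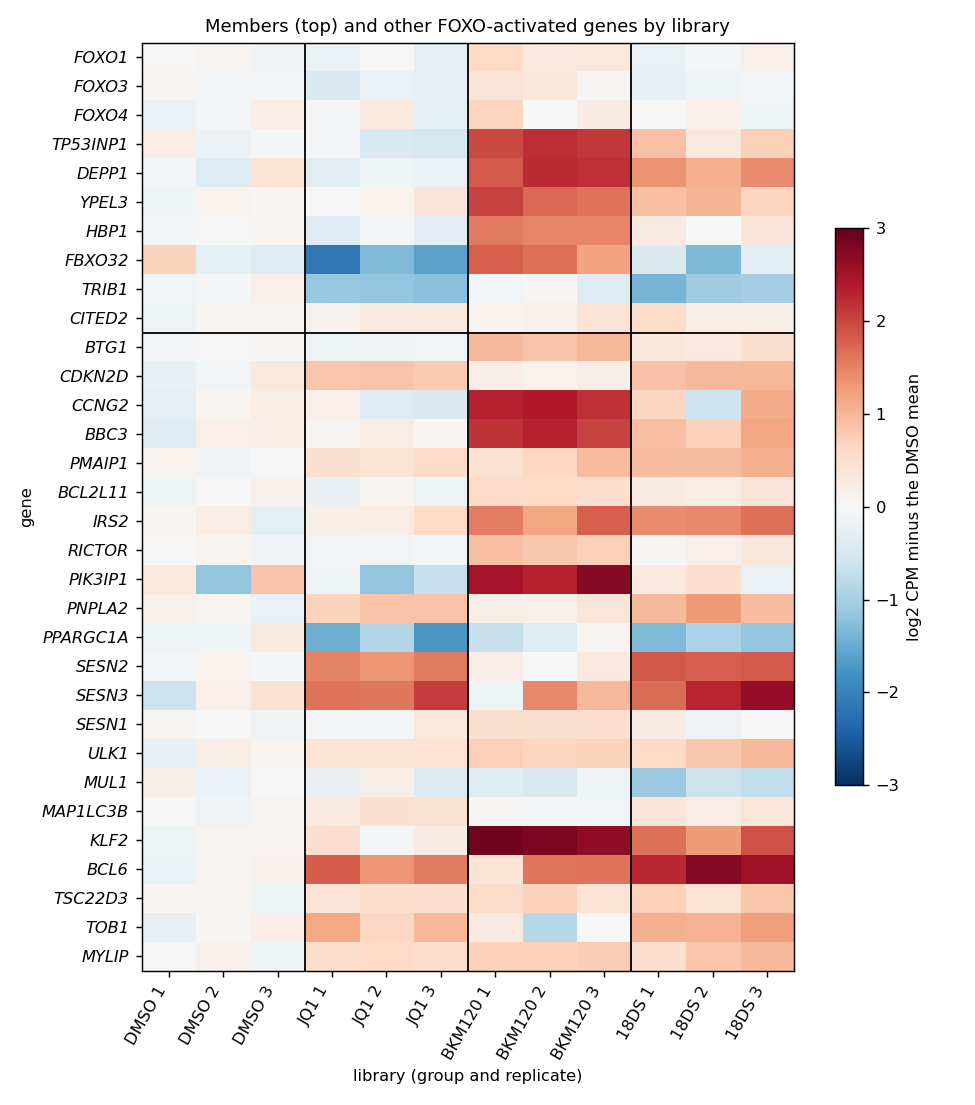
Log2 CPM minus the DMSO mean (colour, red higher and blue lower) of the 10 genes (above the horizontal line) and of the named other FOXO-activated genes (below it), in rows, for the 12 libraries, in columns. *TP53INP1*, *DEPP1*, *YPEL3*, *HBP1*, *CCNG2*, *BBC3* and *KLF2* are darkest red in the 3 BKM120 columns, *TRIB1* is blue in the JQ1 and 18DS columns, and *SESN2* is red in those same columns.

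A further list held 50 genes whose products act on FOXO proteins, of which 49 were tested. With BKM120 0 rose and 3 fell, with JQ1 2 rose and 2 fell, and with 18DS 3 rose and 8 fell. These counts stand beside 8.21%, 6.08% and 21% of all genes called in the same comparisons, and the list's median change was within 0.02 of 0 in each. The JQ1 count was 2 without DMSO replicate 2 or 3 or without JQ1 replicate 2 or 3, and the 18DS count was 5 without DMSO replicate 1. The BKM120 count was 1 without DMSO replicate 1 or 3 or without BKM120 replicate 1 or 3, and 5 without BKM120 replicate 2 or 18DS replicate 2. None of the 11 genes for AKT, SGK and the enzymes above them was called with BKM120 or JQ1, and 1 fell with 18DS. Of 9 genes for 14-3-3 proteins and nuclear transport, 2 fell with BKM120, 1 with JQ1 and 3 with 18DS. *YWHAG*, a 14-3-3 gene, fell with BKM120 (-0.64, SE 0.13, adjusted p = 0.00284) and 18DS (-0.43, adjusted p = 0.0179). Its DMSO replicate 1 was at 112 CPM and DMSO replicates 2 and 3 at 80.9 and 73.6 CPM. *YWHAH* fell with 18DS (-0.39, adjusted p = 0.00532).

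Of 7 genes for enzymes that acetylate, deacetylate or methylate FOXO proteins, 5 were called with 18DS, where 21% of all genes were, 1 with JQ1 and 1 with BKM120. The deacetylase gene *SIRT1* rose with JQ1 (0.70, adjusted p = 0.00711) and 18DS (0.68, adjusted p = 0.00342), *SIRT2* with 18DS (0.77, adjusted p = 0.00097) and the methyltransferase gene *PRMT1* with 18DS (0.34, adjusted p = 0.00362). *SETD7*, a lysine methyltransferase gene, fell with BKM120 (-0.60, adjusted p = 0.0481) and 18DS (-0.71, adjusted p = 0.0108). *MDM2*, a ubiquitin ligase gene, fell with JQ1 (-0.70, adjusted p = 5.4e-05) and 18DS (-0.87, adjusted p = 6.81e-07). *CTNNB1*, which encodes the FOXO partner β-catenin, rose with JQ1 (0.36, adjusted p = 0.0133).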

How the data were processed

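The authors deposited raw counts per Ensembl gene identifier, with a column for each library and without normalization. Per the submitters' processing notes, reads were handled with HISAT2 2.1.0, featureCounts and Subread on hg19, with cutadapt 1.7 and SAMtools 1.9 also named. Which annotation release was used, whether counting used the strand and how multiply aligned reads were treated is not given in the sources used here. Symbols came from a table of gene names, which matched 51662 of 63152 identifiers. No identifier had counts within 5% of those of a member or named gene in every library.

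The analysis used edgeR 4.0.16 under R 4.3.3, and limma 3.58.1 and DESeq2 1.42.0 for alternatives. Low genes were removed with filterByExpr (groups given, count of at least 10, total of at least 15), and libraries were scaled by TMM (factors 0.971 to 1.03). One robust quasi-likelihood fit over the 12 libraries, with 8 residual degrees of freedom and a common biological coefficient of variation of 0.0862, gave log2 fold changes and p-values, adjusted by Benjamini-Hochberg within a comparison. The scripts were tested on simulated data. Libraries of the same group varied beyond counting noise (chi-square per degree of freedom 1.92 to 8.88).

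The 10 genes and both lists were chosen with earlier results of these data known, and the members carry no p-values. Named list genes are, per function, up to 3 with the smallest adjusted p in any of 4 comparisons among genes called in at least 1, and up to 8 regulators chosen likewise. Promoter sequences are from RefSeq on GRCh38.p14 and were not joined to hg19 positions. Within-group deviations of same-numbered replicates had correlations of -0.128 to 0.0919 (18 pairs of libraries), beside -0.118 to 0.148 for 36 differently numbered pairs. The labels do not say whether same-numbered libraries were prepared together, and these correlations cannot decide it. The main fit used no pairing. The settings tried beside this were scaling by library totals, by the upper quartile or by DESeq2 size factors, the DESeq2 Wald test, limma-voom, no filter on low counts, a fit of only the 2 groups compared, a block for the replicate number, and omission of 1 library at a time. Figures used Python 3.11.15 and matplotlib 3.10.9.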

Additional observations from a re-analysis of the deposited data

How the results depend on the processing

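Counts of called genes for the 10 genes and the 2 lists in 4 comparisons kept within 1.5 times the reported value in 91 of 96 cases over 8 settings. The exceptions were regulators called with BKM120 with library totals as the only scaling (5, reported as 3), the 10 genes in 18DS against JQ1 with DESeq2's Wald test (1, reported as 3, with 4 genes that DESeq2 gave no adjusted p), and regulators in 18DS against JQ1 with DESeq2's Wald test (4), without a filter (5) and with only the 2 groups fitted (4, reported as 2). With a replicate block the 10 genes had 2, 6, 4 and 2 calls for JQ1, BKM120, 18DS and 18DS against JQ1, the other FOXO-activated genes 12, 19, 22 and 9, and the regulators 3, 2, 10 and 3.

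With 1 library left out in turn, called members ranged from 1 to 3 for JQ1, 5 to 7 for BKM120, 4 to 4 for 18DS and 2 to 3 for 18DS against JQ1. Other FOXO-activated genes ranged from 9 to 15, 16 to 22, 20 to 22 and 3 to 10, and regulators from 2 to 4, 1 to 5, 5 to 11 and 0 to 4. The lowest values came without DMSO replicate 1 for members with JQ1 (1) and regulators with 18DS (5), without DMSO replicate 1 or JQ1 replicate 3 for other FOXO-activated genes with JQ1 (9), and without JQ1 replicate 1, 2 or 3 or 18DS replicate 3 for those in 18DS against JQ1 (3). Of 797 alternative fold changes of the members 18 changed sign, all of changes that were not called (*FOXO4*, *FOXO1*, *DEPP1*, *TRIB1* and *CITED2*), and 1 moved by more than its error, that of *FBXO32* with BKM120 without DMSO replicate 1 (2.12). The calls of *TP53INP1*, *DEPP1*, *YPEL3* and *HBP1* with BKM120, and of *TRIB1* with JQ1 and 18DS, held in all 20 settings. *FOXO3* with BKM120 was called with upper-quartile scaling and without BKM120 replicate 3, and *CITED2* with 18DS with upper-quartile scaling. The causes were not tested. Counts per library as low as 1 for *FBXO32*, 23 for *DEPP1* and 24 for *FOXO4* limit the precision of their values.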

Other observations

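The fourth FOXO gene, *FOXO6*, named here after its values were seen, was measured at 8.10, 9.50 and 14.3 CPM with DMSO, 7.22, 6.37 and 7.38 CPM with JQ1, 7.08, 6.35 and 7.91 CPM with BKM120, and 7.61, 9.13 and 9.79 CPM with 18DS. All JQ1 and BKM120 libraries were below all DMSO libraries, with log2 fold changes of -0.59 (SE 0.21, edgeR adjusted p = 0.093) and -0.58 (SE 0.21, adjusted p = 0.0812), and neither passed. The near-copies *FOXO3B* and *FOXO1B* had 3 and 0 counts over the 12 libraries.

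Several well-known FOXO targets had too few counts to test under the identifier matched to their symbol. *PDK4*, *G6PC1*, *PCK1* and *IGFBP1*, which serve fasting metabolism in liver and muscle, had 0 counts in all libraries, as had *TXNIP*, *TRIM63*, *S1PR1*, *CCR7*, *RAG2* and *FASLG*. Reads were counted on hg19, and 11490 identifiers had no symbol. A 0 is therefore a value of the matched identifier, and whether the gene has counts under another was not tested. *TNFSF10*, which encodes the death ligand TRAIL, had 56 counts over the 12 libraries and *RAG1* 28.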
